A study of Mus musculus with 4 samples.

Results

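The genes that carry fatty acids into heart muscle cells and oxidise them in mitochondria were followed on 4 Affymetrix mouse arrays. They were taken as 32 gene symbols in the order of the pathway, from uptake through lipolysis, activation, the carnitine shuttle and beta-oxidation to electron transfer. Of these, 30 had a probe set assigned to that symbol alone, out of 18193 genes with such a probe set, and each gene was read on the brightest of its probe sets. Acsl1, the acyl-CoA synthetase that was the only member of the activation step, was not named in the probe table, and Cpt1b shared its probe set with 2 other symbols, so neither was analysed here. The study describes all mice as C57BL/6J adults with both Rhau alleles floxed (Rhau F/F), given 5 doses of tamoxifen at 2 months of age. It describes the RNA as heart RNA taken 2 months later, and the labels name heart. By the study's description, the 2 Rhau KO arrays are of CAAG-ERT2-Cre;Rhau F/F mice and the 2 Control arrays of Rhau F/F mice without the Cre. The CAAG promoter is broadly active, so that this Cre is not limited to cardiomyocytes. No source says whether replicates are separate animals, and the p-values measure no more than the scatter among these samples, which may be technical. The number of arrays limits the precision: with 2 arrays in each group the smallest p that an exact two-sided permutation test allows is 0.333.

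The targeted gene ran opposite to the labels on these arrays. Dhx36, the gene for RHAU, read 568 and 537 under the label Rhau KO against 327 and 194 under the label Control. This is 2.19-fold higher in the group named for its deletion. Where its probes lie relative to the deleted part was not analysed here, so the reading does not settle the genotype, and all values are given by array label. Control replicate 1 was unlike the other arrays. It had the highest reading for 21 of 21 skeletal muscle markers, whose summed intensity was 701671 in this array and 55479 to 68959 in the others. It had the lowest reading for 18 of 19 ventricular cardiomyocyte markers, whose summed intensity was 149556 against 582963 to 607410. Mb, Myl2 and Myl3 supplied most of the sum in Control replicate 1. They read 40329, 37359 and 37087 there, and 44298 to 46213, 40197 to 44161 and 48658 to 50786 elsewhere. Myh4, a fast skeletal myosin, read 43654 there and at most 80.4 elsewhere, and Tnni3, cardiac troponin I, read 10.3 there and at least 37838 elsewhere, so that this array lacked a defining marker of the labelled tissue. In each list 1 gene passed both thresholds used here (fold 2, unadjusted p 0.05 by limma): Acta1, skeletal actin, was lower under the label Rhau KO (16987 and 16893 against 35886 and 33406), and Hspb7, a small heat shock protein of heart, was higher (25506 and 26527 against 11678 and 7989). Control replicate 2 read above both arrays labelled Rhau KO for 12 of 12 heat shock genes, against 6053 of all 18193 genes. Hspa1a was at 18079 there and at 582 to 1141 elsewhere. Intensities are MAS 5.0 values in arbitrary units, given for replicates 1 and 2 of the label Rhau KO and then, after "against", for replicates 1 and 2 of the label Control. Because of these arrays, differences are given over all 4 arrays. For the members and for many of the genes set beside them, they are also given without Control replicate 1. This leaves replicate 2 as the lone Control.

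Long-chain fatty acids are the main fuel of the adult heart. They are released from circulating lipoproteins by lipoprotein lipase or from stored triglyceride by lipases inside the cell, are carried across the membrane and through the cytosol by CD36, transport proteins and fatty acid-binding proteins, and are joined to coenzyme A. The carnitine shuttle then brings the acyl groups across the inner mitochondrial membrane, where repeated rounds of dehydrogenation, hydration, oxidation and thiolysis shorten the chain. Electrons from the dehydrogenation pass through the electron transfer flavoprotein to the respiratory chain. Malonyl-CoA, made by acetyl-CoA carboxylase and removed by malonyl-CoA decarboxylase, blocks entry into the shuttle.

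With all 4 arrays, the mean log2 intensity of 29 of the 30 genes was higher in the arrays labelled Rhau KO, against 56.9% of all genes and 58.2% of the 9097 brighter genes, those at or above the median mean log2 intensity, which held all 30. The median log2 difference, Rhau KO minus Control, was 0.64 over the 30 genes and 0.09 over all genes. Both arrays labelled Rhau KO lay above both labelled Control for 21 of the 30, and none lay below both, against 21.7% and 14.6% of all genes, or 23.2% and 15.3% of the brighter ones. Different shapes lay under this common direction. On their brightest probe sets, genes of uptake were lowest in Control replicate 1 with Control replicate 2 near the arrays labelled Rhau KO, genes of beta-oxidation and electron transfer were lowest in Control replicate 1 and mostly intermediate in Control replicate 2, and genes around malonyl-CoA were nearly level on all arrays. In bulk RNA, fewer cells of a type and less RNA per cell cannot be told apart.

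**Figure D1:**
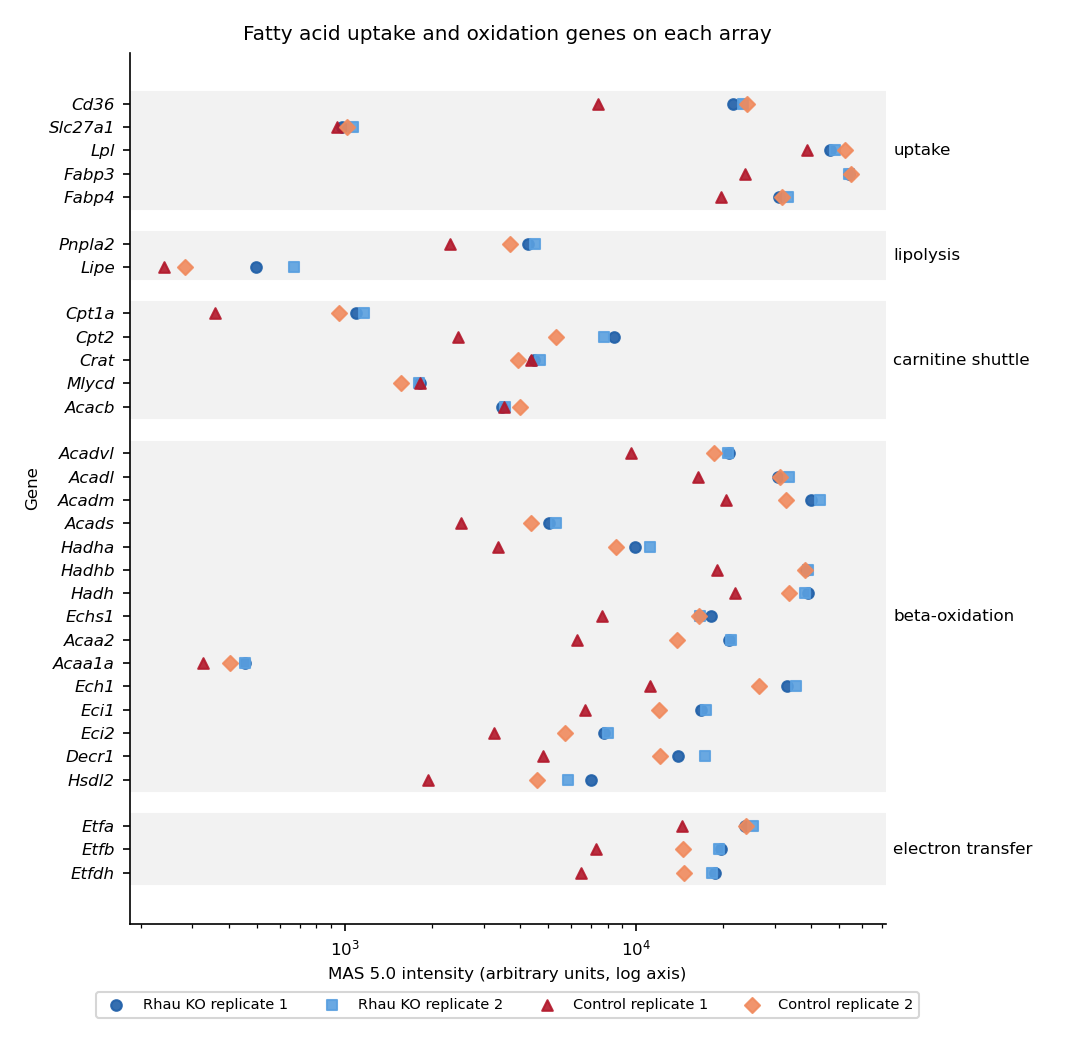
The 30 measured genes by step, each with its MAS 5.0 intensity on a log axis in arbitrary units. Every array has a symbol, blue for the label Rhau KO and red or orange for the label Control. Control replicate 1 is the lowest of the 4 arrays for 27 of the 30 genes, and Control replicate 2 sits below both arrays labelled Rhau KO for 22 of them.

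Control replicate 1 was the lowest of the 4 arrays for 27 of the 30 genes, against 40.0% of all genes and 46.9% of the brighter genes. The mean of the arrays labelled Rhau KO exceeded it by a median of 1.14 log2 units and exceeded Control replicate 2 by a median of 0.23. The 2 arrays labelled Rhau KO differed from each other by a median of 0.08 in absolute log2 units. When Control replicate 1 was left out, 26 of the 30 genes were higher in the arrays labelled Rhau KO, against 52.8% of all genes and 53.3% of the brighter ones, and the median went to 0.23, against 0.03 over all genes. Control replicate 2 lay below both arrays labelled Rhau KO for 22 of the 30, against 39.6% of all genes and 41.9% of the brighter ones. It lay above both for 4 (Cd36, Lpl, Fabp3 and Acacb), against 6053 of all 18193 genes and 3303 of the 9097 brighter ones.

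None of the 30 genes passed an adjusted p of 0.05 by limma with all 4 arrays, where 0 of 18193 genes passed and 4.31% had an unadjusted p under 0.05, or 5.17% by the methods' t-test. Adjusted p-values of the 30 ran from 0.873 to 0.957. Lipe, Cpt2 and Acaa2 passed both thresholds of fold and unadjusted p by limma, and all 3 were higher in the arrays labelled Rhau KO. Over all genes 3.29% passed, 1.65% higher and 1.64% lower, and over the brighter genes 2.08%, 0.868% higher and 1.21% lower. On the 3 arrays left without Control replicate 1, Lipe alone passed both thresholds, against 4.51% of all genes (2.96% higher) and 2.85% of the brighter ones (1.03% higher). An adjusted p of 0.05 by limma was then passed by 0 of the 30, against 0.819% of all genes and 1.60% of the brighter ones. The smallest adjusted p-values there were 0.0560 for Acaa2, 0.0860 for Cpt2 and 0.0963 for Eci1.

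**Figure D2:**
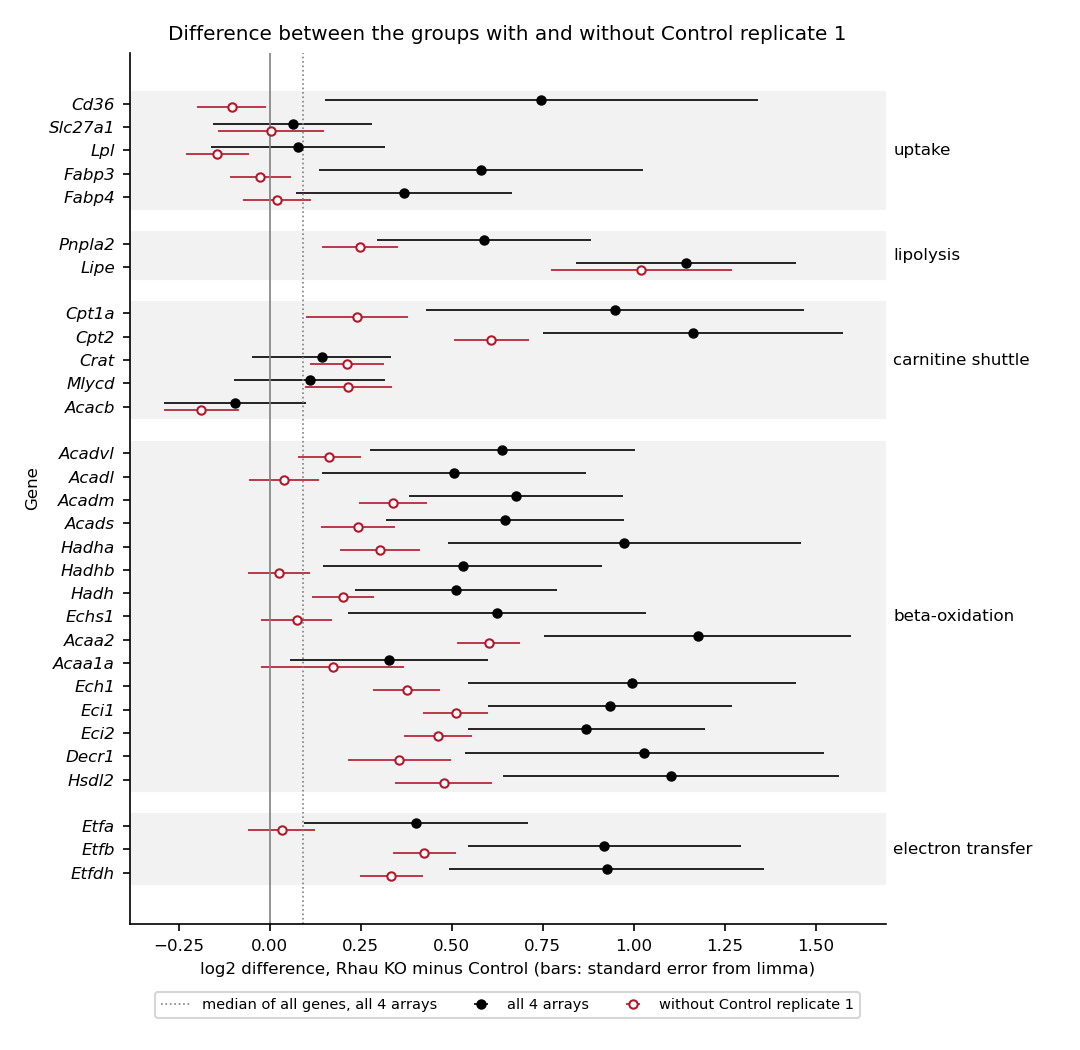
The log2 difference, Rhau KO minus Control, of each gene by step, with all 4 arrays (filled) and without Control replicate 1 (open), bars giving the standard error from limma and the dotted line the median of all genes. On the brightest probe sets plotted, uptake genes move to between -0.14 and 0.02 when the array is left out, while beta-oxidation genes keep a positive difference of 0.03 to 0.60 and Lipe stays at 1.02.

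Many genes of this pathway are known targets of nuclear receptors that recognise the core motif AGGTCA, and the promoter sequences of the members were searched for it. RefSeq windows of build GRCm38.p6, from 250 bases before to 50 bases after a start, were at hand for 26 of the 32 symbols. The motif stood on either strand in 6 of the 30 windows of these symbols, or 20.0%, against 16.3% of all 32851 windows. The direct repeat AGGTCANAGGTCA stood in 0 of the 30 and in 0.0396% of all windows, and the extended form TNAAGGTCA in 0 of the 30 and in 1.28%; both longer forms contain the core motif. A match is a description of letters and not a site shown to be used. The matches before the start that are clear of the far end of the window follow in the direction of transcription. The motif is in capitals, written TGACCT where it lies on the other strand.
Cd36, chr5:17836109-17836134, minus strand, 228 bases before the start: ctgcactttaTGACCTgagattttca
Cpt1a, chr19:3323197-3323222, plus strand, 94 bases before the start: gtttccttacTGACCTcctccccgca
Acadvl, chr11:70015500-70015525, minus strand, 87 bases before the start: ggatcaccctAGGTCAggtagaatac
Echs1, chr7:140116489-140116514, minus strand, 83 bases before the start: cagcccgctcAGGTCAcgggtccacc
The other 2 matches were in Acadm, at the far end of its window, and in Acacb, after the start.

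The 5 genes of uptake were lowest in Control replicate 1 on their brightest probe sets, with a median log2 difference of 0.37 over 4 arrays and of -0.026 without that array. Their 8 other probe sets were all higher under the label Rhau KO without Control replicate 1, by 0.034 for Fabp3 to 0.55 for Fabp4 on the log2 scale. Cd36, the main membrane transporter of fatty acids in heart, read 21589 and 23389 under the label Rhau KO, against 7435 for Control replicate 1 and 24152 for Control replicate 2. The groups overlapped, since Control replicate 2 was the highest of the 4. The log2 difference of Cd36 was 0.75 (standard error 0.59) with all arrays and -0.10 (standard error 0.095) without Control replicate 1. The other probe sets of Cd36 gave 0.89 and 0.97 with all arrays, and 0.16 and 0.32 without that array. Fabp3, the fatty acid-binding protein of heart and skeletal muscle, showed the same shape, at 53837 and 54151 against 23697 and 54985. Its log2 difference went from 0.58 to -0.026. Fabp4, the binding protein of fat cells and capillary endothelium, read 31076 and 33359 against 19586 and 31740, and its difference went from 0.37 to 0.02. A second probe set of Fabp4 read 12348 and 14706 against 8234 and 9233, with both Control arrays low.

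On their brightest probe sets, Lpl, lipoprotein lipase, and Slc27a1, a fatty acid transport protein, differed least among the uptake genes. Their second probe sets gave log2 differences of 1.11 and 0.40, and 0.23 and 0.069 without Control replicate 1. On its brightest probe set Lpl read 46415 and 48511 under the label Rhau KO against 38627 and 52406 under the label Control, so that the Control arrays lay on either side. Its log2 difference was 0.077 (standard error 0.24), -0.047 with median centring of each array and -0.14 without Control replicate 1. The highest reading of any probe set on an array was 57955 to 60981, and the brightest probe sets of Lpl and Fabp3 lay near that level; whether this narrowed their differences was not tested. Slc27a1 read 980 and 1066 against 939 and 1020. Its difference was 0.063 on the log2 scale (standard error 0.22), -0.061 with median centring and 0.0034 without Control replicate 1. The Control arrays of Slc27a1 lay as far apart as the arrays labelled Rhau KO, by 0.12 log2 units each.

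Endothelial markers were low in Control replicate 1 like the uptake genes, as were macrophage and cardiomyocyte markers. All 12 measured endothelial markers were lowest there, as were 9 of 9 macrophage and 18 of 19 cardiomyocyte markers, against 40.0% of all genes. The endothelial markers summed to 9844 in Control replicate 1, 24732 in Control replicate 2, and 23604 and 23119 in the arrays labelled Rhau KO. Pecam1, which defines these cells, read 1077 and 1128 against 489 and 1183. Gpihbp1, which anchors lipoprotein lipase on capillary endothelium, read 6340 and 6478 against 2657 and 6392. With Control replicate 1 left out, the median log2 difference on the brightest probe sets was -0.037 for the 12 endothelial markers and -0.026 for the 5 uptake genes. It was -0.056 for macrophage and -0.051 for cardiomyocyte markers. The 8 other probe sets of the uptake genes were all higher under the label Rhau KO without that array. The endothelial markers then ran from -1.74 for Cldn5 to 0.55 for Kdr. Of 14 adipocyte markers, 11 were measured, 3 of them lowest in Control replicate 1. Adipoq, the adipokine that defines fat cells, read 3.93 and 164 under the label Rhau KO, against 911 for Control replicate 1 and 97.5 for Control replicate 2. The summed intensity of the adipocyte markers was 7759 and 9526 against 66176 and 10859, with 56563 of the sum in Control replicate 1 coming from Car3, which muscle also expresses. The part of these cells in the uptake values was not tested.

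**Figure D3:**
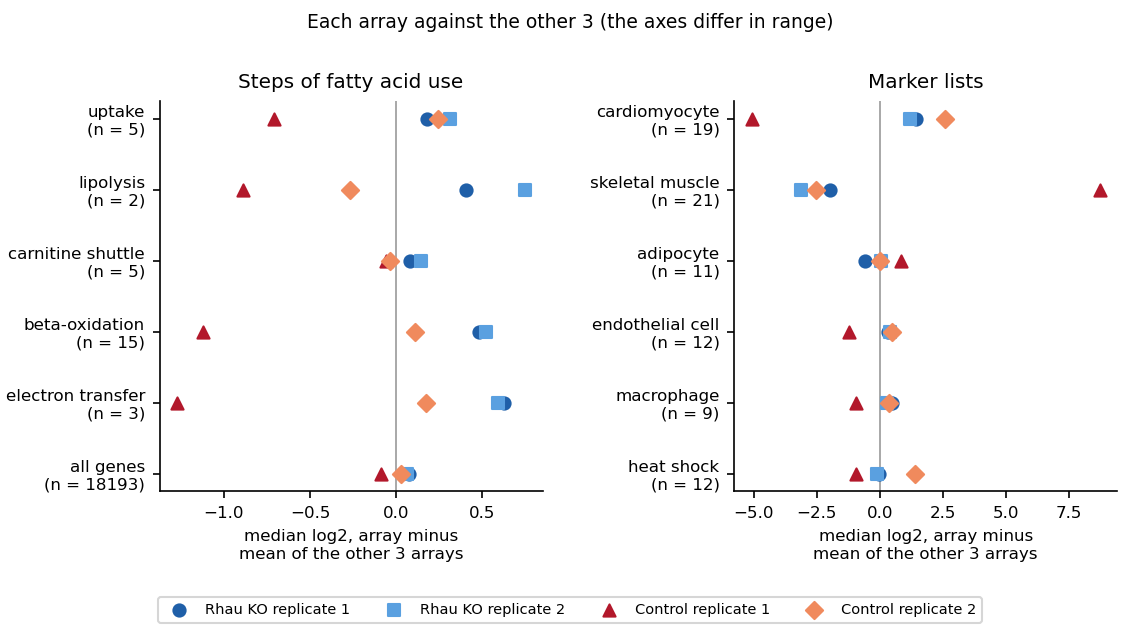
Median log2 intensity of each array minus the mean of the other 3, for the genes of each step and all genes (left) and for marker lists (right, wider axis), 1 symbol per array. Control replicate 1 is the lowest array for beta-oxidation at -1.12 and for endothelial markers at -1.23, and the highest for skeletal muscle markers at 8.71.

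Both lipases of lipolysis were lower in both arrays labelled Control. Lipe, hormone-sensitive lipase, which releases fatty acids from diglyceride, read 496 and 668 under the label Rhau KO against 239 and 284 under the label Control. The 4 values did not overlap between groups, and the 2 Control arrays lay close together. The log2 difference was 1.14 (standard error 0.30, unadjusted p = 0.0155 and adjusted p = 0.873 by limma), and 1.02 (standard error 0.25, adjusted p = 0.180 by limma) without Control replicate 1. It was the member whose difference changed least in proportion among the 3 past both thresholds. Its second probe set was dim, at 10.4 to 48.2, and with the mean of both probe sets the log2 difference of Lipe was 0.26. Pnpla2, adipose triglyceride lipase, which starts the breakdown of stored triglyceride, read 4250 and 4510 against 2298 and 3687. It differed by 0.59 log2 units (standard error 0.29), or 0.25 without Control replicate 1, while the mean with its dim second probe set turned it to -0.54.

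No member of the activation step was measured. The other 4 long-chain acyl-CoA synthetases, taken from a list of further pathway genes and named here after their values were seen, differed in direction. Acsl4 read 619 and 577 under the label Rhau KO against 1570 and 715 under the label Control, and Acsl3 read 146 and 166 against 351 and 201. Both were lower by value under the label Rhau KO, with log2 differences of -0.83 and -0.77, and -0.26 and -0.37 without Control replicate 1. Acsl6 was highest in Control replicate 1, at 1879 against 338 to 436 on the other arrays, and its difference turned from -0.88 to 0.36 without that array. Acsl5 was lowest there, at 853 and 742 against 399 and 954, and its difference turned from 0.37 to -0.26. None of the 4 passed both thresholds.

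The carnitine shuttle, read here without Cpt1b, divided between the palmitoyltransferases Cpt1a and Cpt2 and the genes around malonyl-CoA and acetyl groups. Cpt2, which re-forms acyl-CoA inside the mitochondrion, read 8428 and 7755 under the label Rhau KO, against 2458 for Control replicate 1 and 5302 for Control replicate 2. The groups did not overlap. The log2 difference of Cpt2 was 1.16 (standard error 0.41, unadjusted p = 0.0414 and adjusted p = 0.873 by limma) and 0.61 (standard error 0.10) without Control replicate 1. Its second probe set, at 83.6 to 272, gave -0.16, and the mean of both gave 0.50. Cpt1a, the form of the outer palmitoyltransferase best known from liver, read 1096 and 1161 against 358 and 956. It differed by 0.95 log2 units (standard error 0.52), or 0.24 without Control replicate 1. Of its dimmer probe sets, 1 gave 1.25, and 1.22 without that array, while the other gave 0.65 and 0.08.

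The remaining shuttle genes were nearly level. Acacb, the acetyl-CoA carboxylase that makes malonyl-CoA at the mitochondrial surface, read 3465 and 3559 under the label Rhau KO against 3518 and 3999 under the label Control, with a log2 difference of -0.095 (standard error 0.20), and -0.19 without Control replicate 1. It was the one member with a lower mean in the arrays labelled Rhau KO. Mlycd, malonyl-CoA decarboxylase, read 1821 and 1805 against 1810 and 1561. Its difference of 0.11 log2 units (standard error 0.21) stood at -0.014 with median centring and at 0.22 without Control replicate 1. Crat, carnitine acetyltransferase, read 4465 and 4685 against 4349 and 3947, a difference of 0.14 (standard error 0.19), 0.21 without Control replicate 1, and -0.026 with the mean of its probe sets. These 3 genes were also the only members for which Control replicate 1 was not the lowest array.

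For all 15 genes of beta-oxidation the mean was higher under the label Rhau KO, with log2 differences of 0.33 to 1.18 and a median of 0.68. For 14 of them both arrays labelled Rhau KO lay above both labelled Control, against 21.7% of all genes and 23.2% of the brighter ones. Acadl was the exception. On 3 arrays, Control replicate 1 left out, all 15 stayed higher, at 0.03 to 0.60 with a median of 0.30. Median centring of the 3 remaining arrays, chosen after seeing the data, lowered the median of all 30 members from 0.23 to 0.14. It lowered the number of members higher under the label Rhau KO from 26 to 20. Centring shifts every gene alike. The differences of Hadhb, Acadl and Echs1 (0.026, 0.040 and 0.075) were smaller than this shift, so not all 15 stay higher under it. Of the cardiomyocyte markers, 18 of 19 were likewise lowest in Control replicate 1. Without it these markers had a median log2 difference of -0.051. They went both ways, 6 higher and 13 lower under the label Rhau KO, against 52.8% of all genes higher. Their extremes were -2.29 for Nkx2-5, a cardiac transcription factor, and 1.70 for Hspb7. Control replicate 2 read above both arrays labelled Rhau KO for 12 of 12 heat shock genes, against 6053 of all 18193 genes. Their log2 differences without Control replicate 1 ran from -4.47 for Hspa1a to -0.083 for Hspd1. Hspb7, which is not in that list, was lowest in Control replicate 2, at 7989. The part of cell makeup or of heat shock in the beta-oxidation values was not tested. All 9 macrophage markers were also lowest in Control replicate 1, and 6 of 10 fibroblast markers were.

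The acyl-CoA dehydrogenases, which take the first step of each round and differ in the chain length they accept, lay close together. Acadvl, for very long chains, read 20881 and 20751 against 9623 and 18579. Acadm, for medium chains, read 39844 and 42964 against 20492 and 32721, and Acads, for short chains, read 5023 and 5339 against 2500 and 4376. For these 3 the groups did not overlap, and their log2 differences were 0.64, 0.68 and 0.65 (standard errors 0.36, 0.29 and 0.33). Leaving out Control replicate 1 gave 0.16, 0.34 and 0.24. Acadl, for long chains, read 30763 and 33631 against 16390 and 31290, with Control replicate 2 between the arrays labelled Rhau KO. Its difference went from 0.51 to 0.04.

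The trifunctional protein, which carries the later steps for long chains, is built from Hadha and Hadhb. Hadha read 9910 and 11183 against 3368 and 8531. It differed by 0.97 log2 units (standard error 0.48), or 0.30 without Control replicate 1. Hadhb read 38570 and 39028 against 18959 and 38104, and its difference went from 0.53 (standard error 0.38) to 0.03. On these brightest probe sets the subunits differed in how far Control replicate 2 lay below the arrays labelled Rhau KO. Another bright probe set of Hadhb read 28065 and 29971 against 15769 and 22245. It gave 0.63 with all arrays and 0.38 without Control replicate 1. A dim one, at 230 to 435, gave 0.56 and 0.69. The gap between the subunits thus depended on the probe set of Hadhb, and it was not tested.

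For shorter chains the same steps are done by separate matrix enzymes. Echs1, enoyl-CoA hydratase, read 18078 and 16596 against 7686 and 16446, and Hadh, hydroxyacyl-CoA dehydrogenase, read 39168 and 38248 against 21920 and 33636. Acaa2, the mitochondrial thiolase that releases acetyl-CoA, read 20949 and 21176 against 6265 and 13882. The groups did not overlap for any of the 3. The log2 difference of Acaa2 was 1.18 (standard error 0.42, unadjusted p = 0.0430 and adjusted p = 0.873 by limma), and 0.60 (standard error 0.09) without Control replicate 1. Its 3 probe sets gave 1.11 to 1.29. For Echs1 and Hadh the differences were 0.62 and 0.51 (standard errors 0.41 and 0.28), and 0.07 and 0.20 without Control replicate 1. Acaa1a, a peroxisomal thiolase, was the dimmest gene of the step, at 454 and 455 against 325 and 403. Its difference was 0.33 on this probe set and -0.46 on its second. Without Control replicate 1 these were 0.17 and -0.42.

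The auxiliary enzymes, which handle double bonds of unsaturated fatty acids, were lower in Control replicate 2 as well as in Control replicate 1. Eci1, an enoyl-CoA isomerase, read 16813 and 17491 against 6688 and 12038. Its partner Eci2 read 7750 and 8017 against 3252 and 5721, and Ech1, a dienoyl-CoA isomerase, read 33186 and 35542 against 11227 and 26450. None of these overlapped between groups. The log2 differences of Eci1, Eci2 and Ech1 were 0.93, 0.87 and 0.99 (standard errors 0.34, 0.33 and 0.45), with unadjusted p = 0.0429, 0.0492 and 0.0839 by limma, and 0.51, 0.46 and 0.38 without Control replicate 1. Decr1, dienoyl-CoA reductase, read 13997 and 17292 against 4783 and 12153. The difference was 1.03 (standard error 0.49), and 0.36 without Control replicate 1. Hsdl2, a protein of the short-chain dehydrogenase family outside this group of enzymes, read 6992 and 5857 against 1932 and 4595, a difference of 1.10 (standard error 0.46), and 0.48 without Control replicate 1.

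The 3 genes of electron transfer had a median log2 difference of 0.92, and 0.33 without Control replicate 1. Etfb, the beta subunit of the electron transfer flavoprotein, read 19636 and 19313 under the label Rhau KO against 7309 and 14507 under the label Control. Etfdh, the oxidoreductase that hands its electrons to ubiquinone, read 18755 and 18280 against 6471 and 14685. Neither overlapped between groups, and their log2 differences were 0.92 and 0.93 (standard errors 0.38 and 0.43), or 0.42 and 0.33 without Control replicate 1. Etfa, the alpha subunit, read 23741 and 25348 against 14362 and 23976, with Control replicate 2 between the arrays labelled Rhau KO. Its difference went from 0.40 (standard error 0.31) to 0.03.

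Where a gene had several probe sets, these mostly shared a direction. The 30 genes had 57 probe sets, and 19 genes had more than 1. For 14 of the 19 all probe sets had the same sign, and for Pnpla2, Lipe, Cpt2, Crat and Acaa1a they did not. Of the 27 probe sets that were not the brightest, 20 were higher in the arrays labelled Rhau KO and 18 were lowest in Control replicate 1, and when that array was left out 24 of the 27 were higher. Both probe sets of Lpl were bright and gave different sizes. The second one read 36688 and 36397 against 9144 and 31234, differing by 1.11 log2 units beside 0.077 on the brightest, and 0.23 beside -0.14 without Control replicate 1. The 3 other probe sets of Fabp4 gave 0.63 to 1.13 beside 0.37 on its brightest. A dimmer probe set of Cpt1a read 672 and 695 against 279 and 294, with both Control arrays low, and one of Decr1 read 4724 and 4916 against 2545 and 2713. On these, leaving out Control replicate 1 kept the log2 difference at 1.22 for Cpt1a and 0.83 for Decr1, beside 0.24 and 0.36 on the brightest probe sets.

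**Figure D4:**
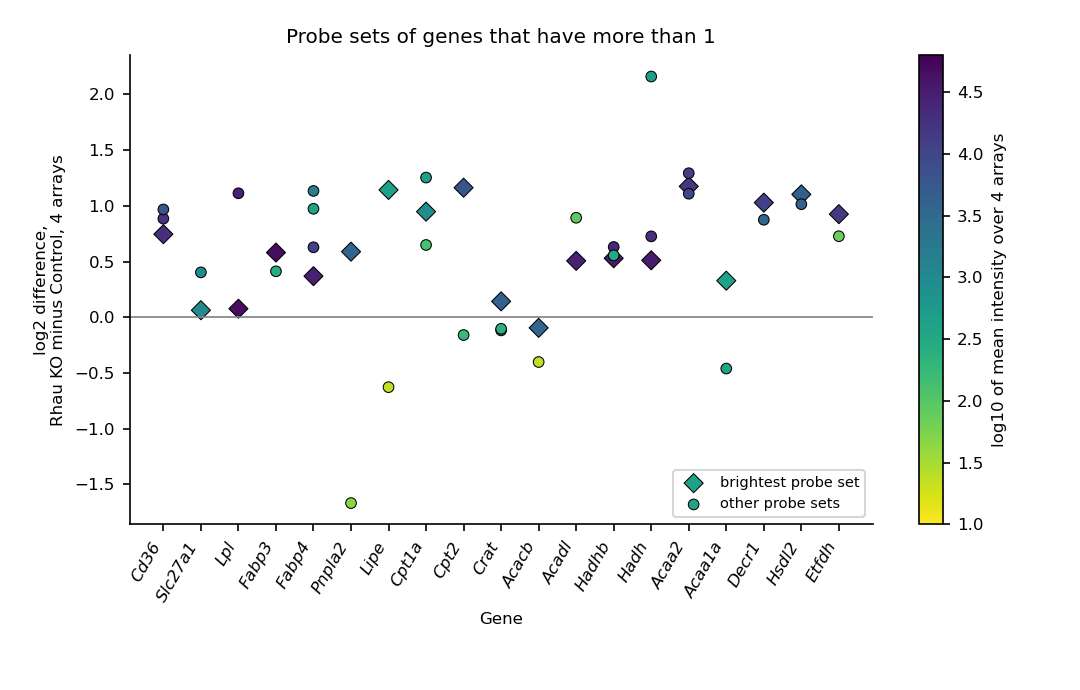
The log2 difference, Rhau KO minus Control, over 4 arrays for every probe set of the 19 genes with more than 1, diamonds for the brightest and circles for the others, coloured by the log10 of mean intensity. The dim second probe sets of Pnpla2 and Lipe lie below 0, at -1.67 and -0.63, while the 3 probe sets of Acaa2 lie together at 1.11 to 1.29.

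Of 43 further genes of fatty acid handling, 41 were measured. With all arrays 30 of the 41 were higher in the arrays labelled Rhau KO, against 56.9% of all genes, with a median log2 difference of 0.43. Without Control replicate 1 also 30 were higher, against 52.8% of all genes, with a median of 0.16. Etfbkmt, the methyltransferase that modifies the beta subunit of the electron transfer flavoprotein, passed both thresholds, at 1510 and 2157 against 1067 and 729, differing by 1.03 log2 units (standard error 0.32), or 1.31 without Control replicate 1. None passed in the lower direction, so that 1 of the 41 passed both thresholds, against 3.29% of all genes. Slc25a20, the carnitine-acylcarnitine carrier that links the palmitoyltransferases, read 8737 and 8721 against 4826 and 6600, a difference of 0.63, and 0.40 without Control replicate 1. Prkaa2, a catalytic subunit of AMP-activated kinase, which inhibits acetyl-CoA carboxylase, was lower at 3695 and 3287 against 8702 and 4672, a difference of -0.87, and -0.42 without Control replicate 1. Both of these were named after their values were seen.

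Of 12 transcriptional regulators of the pathway, 8 were higher in the arrays labelled Rhau KO, against 56.9% of all genes, with a median of 0.24, and 0 passed both thresholds. With Control replicate 1 left out 7 were higher, against 52.8% of all genes, with a median of 0.076. Ppargc1a, the coactivator PGC-1 alpha, chosen after its values were seen, read 8032 and 7631 against 3021 and 5600. Its log2 difference was 0.93 (unadjusted p = 0.0490 by limma), and 0.48 without Control replicate 1. Ppara, the receptor for which many of these genes are known targets, read 1623 and 1519 against 931 and 1761, so that the groups overlapped, and its difference turned from 0.29 to -0.17 without Control replicate 1. Of 8 targets of that receptor outside the members, 6 were measured, 5 were higher by value and 3 passed both thresholds in that direction, against 1.65% of all genes; the list was chosen with earlier results known. Acot1 and Acot2 are thioesterases that free fatty acids from coenzyme A, and Angptl4 is an inhibitor of lipoprotein lipase. Acot1 read 562 and 382 against 73.9 and 137, and Acot2 read 4843 and 4954 against 809 and 2205. Their log2 differences were 2.21 and 1.88 (standard errors 0.46 and 0.52), and 1.76 and 1.15 without Control replicate 1. Angptl4 read 331 and 525 against 181 and 187, with both Control arrays low. It differed by 1.18 log2 units (standard error 0.36), or 1.16 without Control replicate 1. Of those that did not pass, Plin5, which coats lipid droplets, differed by 1.48, and Pdk4, a kinase that inhibits pyruvate dehydrogenase, read 10816 and 16494 against 15550 and 6764, a difference of 0.38, or 0.98 without Control replicate 1. Ucp3, a mitochondrial uncoupling protein, read 702 and 983 against 2519 and 905, a difference of -0.86, or -0.12 without that array.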

How the data were processed

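RNA from 4 samples, labelled as heart, was hybridised to 1 Affymetrix mouse array each. Intensities were used as deposited, on the linear scale to which the authors brought them by MAS 5.0. The 2% trimmed mean was 499.8 on every array, so that a global shift between arrays would have been scaled out. On an array, 51.7% to 54.0% of the 45101 probe sets read under 100. Groups were taken from the sample labels. After 64 control probe sets were left out, genes were represented by the brightest of the probe sets with 1 symbol (34958 probe sets; 932 carried several symbols and 9211 none). Differences are log2 intensity in the Rhau KO group minus that in the Control group. They were fitted by limma 3.58.1 (R 4.3.3; lmFit, then eBayes with a trend), tested on simulated data, with Benjamini-Hochberg adjustment over 18193 genes. The members and lists were chosen with earlier results of these data known. Genes named are all members by step, genes of the other lists past both thresholds (fold 2, unadjusted p 0.05), defining markers, and those said to be chosen later. Without Control replicate 1, the lone Control array is assumed to vary like the arrays labelled Rhau KO. The alternatives were no trend, quantile normalization, median centring, a pseudocount of 32, the 9097 brighter genes, the mean of all probe sets, a block for the replicate number, the two-tailed Student test of the methods on the same values, and leaving out each array. Promoter windows were from RefSeq. Tables and plots were made with Python 3.11.15, numpy 2.4.6, pandas 2.3.3 and matplotlib 3.10.9.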

Additional observations from a re-analysis of the deposited data

How the results depend on the processing

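The number of members higher in the arrays labelled Rhau KO was 26 to 29 of 30 under each alternative changed alone, and without Control replicate 1 it was 28 with probe sets averaged, 26 with quantile normalization and 20 with median centring. The number past both thresholds (fold 2, unadjusted p 0.05) was 3 with all arrays, 1 each with no trend, median centring, the brighter genes and the methods' t-test, and 0 to 19 when an array was left out, the 19 arising without Control replicate 2, where Control replicate 1 is the lone Control (0 without either array labelled Rhau KO, and 1 without Control replicate 1). Without Control replicate 1 it was 0 with quantile normalization, 0 with median centring and 1 when probe sets were averaged, 3 settings chosen after seeing the data. The median log2 difference was 0.23 to 1.14 when an array was left out, 0.14 with median centring and without Control replicate 1, and 0.52 to 0.66 under the other alternatives with all arrays. Median centring moved the median of all genes from 0.09 to -0.03. Of the 30 members, 22 kept their direction under all alternatives changed alone. Leaving out an array gave -0.10 to 1.60 for Cd36, -0.14 to 0.30 for Lpl and -0.026 to 1.19 for Fabp3, each negative without Control replicate 1 only. With median centring, Slc27a1 turned to -0.061, Lpl to -0.047 and Mlycd to -0.014. With probe sets averaged, Pnpla2 turned to -0.54, Crat to -0.026 and Acaa1a to -0.066. The cause of these turns was not tested beyond the change of setting. Without Control replicate 2, 24 members passed an adjusted p of 0.05 by limma, and 4097 of 18193 genes did. With the replicate number as a block, 4 members passed both thresholds; the numbers share no stated origin, and deviations of same-numbered arrays from their group means correlated at 0.006 across genes. Whether intensities near the top of the scale or dim second probe sets affect the differences of Lpl, Fabp3, Lipe and Pnpla2 was not tested.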

Other observations

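Peroxisomal and other mitochondrial enzymes of lipid handling, named here after their values were seen, varied in their pattern. Scp2, a peroxisomal thiolase and lipid carrier, read 13481 and 13524 under the label Rhau KO against 10538 and 9912 under the label Control, and Hsd17b4, the peroxisomal multifunctional enzyme, read 3750 and 3559 against 2782 and 3033. In both genes the Control arrays lay close together and below both arrays labelled Rhau KO, with log2 differences of 0.40 and 0.33, and 0.45 and 0.27 without Control replicate 1. Phyh, which starts the oxidation of phytanic acid, was low in Control replicate 1 alone, at 5884 against 16364 to 17002. Mcat and Mecr belong to mitochondrial fatty acid synthesis. Mcat read 868 and 1219 against 548 and 619, and Mecr read 597 and 546 against 548 and 569, so that the groups were apart for Mcat and overlapped for Mecr. Plin5, which ties lipid droplets to mitochondria in oxidative tissue, read 5094 and 4388 against 904 and 3188. It differed by 1.48 log2 units with all arrays and by 0.57 without Control replicate 1.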
